A study of Homo sapiens with 23 samples.

Results

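The genes described here act at the step from G1 into S phase in human T47D cells: the cyclins CCND1, CCND3, CCNE1 and CCNE2, the kinases CDK4 and CDK2, the inhibitors CDKN1A (p21) and CDKN1B (p27), and the transcription factors E2F1 and MYC. They were picked by symbol, not by their values, and are 10 of the 60605 genes in the count table. T47D is a luminal breast cancer line that expresses the estrogen receptor, and all libraries came from dTAG-TRPS1 Clone 28, a single clone in which the endogenous TRPS1 gene carries an HA-tagged FKBP_F36V degron and the remaining copies are knocked out. TRPS1 is a GATA-type zinc finger repressor of transcription, and the degron lets a small molecule send the tagged protein to the proteasome. Treated cells received the ligands dTAG-13 (50 nM) and dTAG-V-1 (50 nM) together for 0.5, 1, 2, 4 or 24 h (n = 4 libraries per time point, and n = 3 at 24 h, replicates 2 to 4), or DMSO as the vehicle for 24 h (n = 4). The assay was precision run-on sequencing (PRO-seq) of nascent RNA, which reads RNA polymerase that is engaged on genes. The question here was when these regulators moved, set against the later fall of the genes that run DNA replication and mitosis.

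In G1, mitogens and hormones such as estrogen raise D-type cyclins, which pair with CDK4 and CDK6 and phosphorylate the retinoblastoma protein. This frees E2F factors, which switch on the E-type cyclins and the DNA replication genes, and cyclin E with CDK2 completes the step. CDKN1A, a target of p53, and CDKN1B restrain cyclin-CDK complexes, and MYC drives growth and cell cycle entry. In luminal breast cancer cells, CCND1 and MYC are known as genes that respond to estrogen, and CDK4 with CDK6 is a drug target.

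Because E2F1 is both a regulator and a target of E2F factors, its promoter is shown. The 250 bases before its RefSeq start (GRCh38.p14, chr20:33686386-33686635, minus strand) are printed with its single match to E2F letters in capitals. The letters searched, on either strand, were TTCCCGC, then the variant TTGGCGC and lastly the variant TTCGCGC. Only exact matches to these were counted, so E2F sites spelled otherwise would be missed. The match begins 19 bases before the start.
E2F1: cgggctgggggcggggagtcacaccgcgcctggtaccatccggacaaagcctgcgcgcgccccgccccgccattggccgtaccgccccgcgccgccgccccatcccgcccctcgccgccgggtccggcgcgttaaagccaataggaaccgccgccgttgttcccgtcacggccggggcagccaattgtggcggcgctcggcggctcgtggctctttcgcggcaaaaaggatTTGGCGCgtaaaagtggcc
Of 35116 RefSeq promoters of this length, 9.32% held such a match. Promoters were found for 6 of the 10 genes, and E2F1 was the 1 gene of these 6 with a match; CCND3, CCNE1, CDK4, CDKN1A and CDKN1B had none in this window. Among genes with a promoter, the letters stood before 26 of 48 DNA replication genes (54.2%) and 14 of 52 mitosis genes (26.9%), against 11.2% of all genes.

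The libraries held between 4408544 and 17571616 counts in genes (median 9768427). The shallowest, replicate 1 at 4 h, stood apart: 6.50% of its counts were mitochondrial, against 1.73% to 4.24% in the other 22, and its TMM scaling factor was 0.857, against 0.920 to 1.05. Values at 4 h that move without this library are given both ways, or the library's own value is shown. Markers of luminal breast cells were high in every library: the 10 listed sum to between 6020 and 7762 CPM (counts scaled to the library size), with ESR1 between 2124 and 2698 CPM, although TFF1 stayed between 1.78 and 6.43 CPM. Of 6 basal markers, the keratins KRT5, KRT14 and KRT17 were each under 0.5 CPM in every library, while TP63 (18.6 to 30.5 CPM), EGFR (17.1 to 24.4 CPM) and ACTA2 (6.14 to 10.6 CPM) were present, and the list summed to between 44.7 and 65.2 CPM. Summed fibroblast and leukocyte markers reached at most 18.2 and 22.4 CPM. TRPS1 itself was at 9135 ± 888 CPM (SD, n = 4) in DMSO and between 9987 and 11078 CPM in the means of the dTAG groups. The ligands act on the protein, so these counts are no check of its loss. The labels state that the 4 replicates were treated and collected at different times of the same day, so a replicate number joins the libraries that share a harvest. All comparisons were therefore made without and with the replicate number as a term (the replicate block). All 5 comparisons with DMSO share the same DMSO libraries.

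Per kilobase of gene, CCND1 was the most transcribed of the 10 genes in DMSO, at 12.4 ± 0.686 CPM per kb (SD, n = 4). MYC followed at 8.31 ± 0.592 CPM per kb and CCNE2 at 4.47 ± 0.436 CPM per kb. A middle set came next, CDK2 (3.02 ± 0.164 CPM per kb), CDK4 (2.92 ± 0.618), CDKN1A (2.90 ± 0.205) and E2F1 (2.55 ± 0.299), in which each gene's range of libraries overlapped that of the next. CCNE1 (1.13 ± 0.0960 CPM per kb) and CDKN1B (0.990 ± 0.0718) overlapped as well, and CCND3 was lowest at 0.367 ± 0.0174 CPM per kb. The long CCND3 gene span (115 kb) enters this value, since reads are divided by the whole annotated gene. The same holds for CDKN1B, whose span of 36.9 kb begins at 12685498, well before its RefSeq start (just after 12717367). The CDK4 span also reaches upstream of its RefSeq start: on the minus strand it ends at 57756013, with that start just below 57752311. For CDKN1A the span begins at 36676460, and the RefSeq start lies just after 36678713. The places of CDKN1B, CDK4 and CDKN1A in this order therefore depend on the span used.

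**Figure D1:**
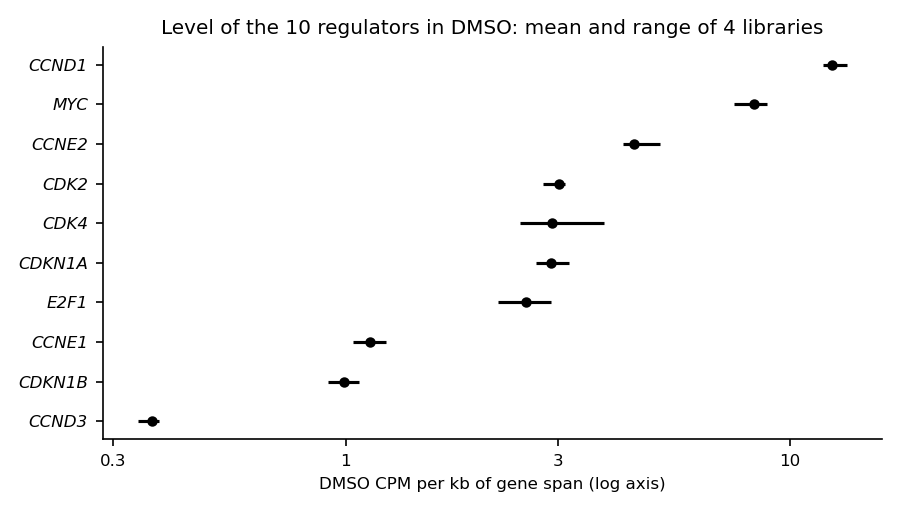
Level of each gene in DMSO in CPM per kb of annotated gene span, on a log axis. Points are means of the 4 DMSO libraries and lines run from the lowest to the highest library; CCND1 lies at 12.4 and CCND3 at 0.367 CPM per kb.

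None of the 10 genes passed an adjusted p of 0.1 at any of the 5 time points without the replicate block (0 of 50 tests, edgeR's quasi-likelihood test with Benjamini-Hochberg adjustment over 26057 genes; 9 of 50 at an unadjusted p under 0.05). Across all genes, 0.476%, 1.25%, 0.733%, 0.833% and 0.863% passed at 0.5, 1, 2, 4 and 24 h. Of all 26057 genes, 2003, 2454, 1849, 1946 and 1921 had an unadjusted edgeR p under 0.05 without the block. With the block, 6 of the 50 tests passed, for 4 genes: MYC was higher at 0.5 h, CCND1 lower at 1, 2 and 4 h, CCNE2 lower at 4 h and E2F1 lower at 24 h. Of all genes, 2.48%, 3.25%, 2.43%, 2.49% and 2.65% passed with the block at these times. Without replicate 1 at 4 h the count was again 0 without and 6 in the blocked fit. DESeq2 without the block called 1 of 50, CCND1 at 1 h (adjusted p = 0.0414). Every change was small. Over the 50 tests without the block, the 95% intervals ran from a log2 fold change of -0.46 (CCNE1 at 1 h, 0.729-fold) to 0.36 (CDK2 at 0.5 h, 1.29-fold).

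**Figure D2:**
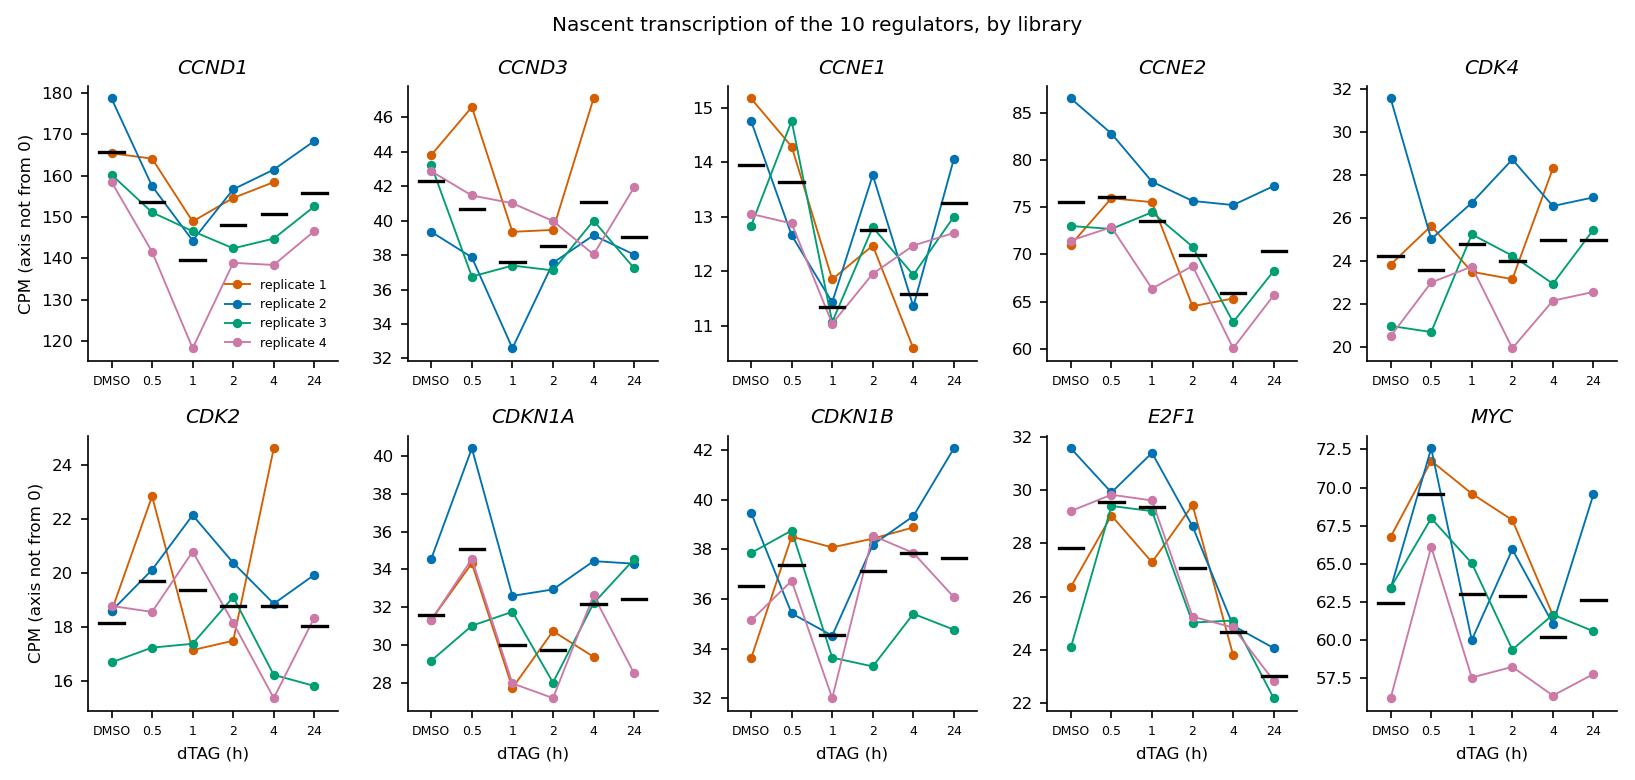
CPM of each gene in each library, by treatment time in h (categories, not to scale; the vertical axes do not start at 0). Points of one colour are libraries with the same replicate number and black bars are group means; CCND1 lies below its own DMSO library in 19 of 19 pairs, and E2F1 is lowest at 24 h.

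CCND1, the D-type cyclin that links hormone signals to CDK4 and CDK6, lies at chr11:69641156-69654474 on the plus strand (hg38). In replicates 1 to 4 it stood at 165, 179, 160.3 and 159 CPM in DMSO. At 0.5 h the values were 164, 157, 151 and 142 CPM, and at 1 h they were 149, 144, 147 and 118 CPM. The 1 h libraries all lay below the lowest DMSO library. At 2 h the values were 155, 157, 142 and 139 CPM, again with no overlap with DMSO. At 4 h they were 158, 162, 145 and 138 CPM. At 24 h they were 168, 153 and 147 CPM in replicates 2 to 4. These last groups overlapped DMSO, but each of the 19 dTAG libraries was below the DMSO library of the same number. Of all genes, 4.97%, 5.37%, 4.85% and 4.43% had groups that did not overlap at 0.5, 1, 2 and 4 h.

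The difference from DMSO was deepest at 1 h, where the log2 fold change was -0.25 ± 0.07 (SE) without the block (edgeR adjusted p = 0.146) and -0.25 ± 0.04 with it (adjusted p = 0.00076). At that time 1.75% of all genes were called lower with the block. CCND1 was also called lower with the block at 2 h (-0.16 ± 0.04, edgeR adjusted p = 0.0291) and at 4 h (-0.14 ± 0.04, adjusted p = 0.0804), where 1.13% and 0.948% of genes were. At 24 h its log2 fold change was -0.07 ± 0.04 (adjusted p = 0.607). The 1 h call was kept without each replicate number in turn, at log2 fold changes of -0.20 to -0.29 and adjusted p-values of 0.0011 to 0.0404. The 2 h call was lost without replicate 2, 3 or 4 (edgeR adjusted p = 0.244, 0.158 and 0.138), and so was the 4 h call (adjusted p = 0.343, 0.281 and 0.323). LTO1, which overlaps 10.5% of CCND1 on the other strand, had log2 fold changes of 0.00 to 0.04 with the block.

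CCND3, the other D-type cyclin measured (chr6:41934934-42050357, minus strand), showed no call in either fit. Its 4 DMSO libraries held 43.8, 39.4, 43.2 and 42.9 CPM and its 1 h libraries 39.4, 32.6, 37.4 and 41.0 CPM. All 1 h libraries were below their own DMSO library, but the groups overlapped. The log2 fold change at 1 h was -0.18 ± 0.06 with the block (edgeR adjusted p = 0.137), and at the other times it lay between -0.14 and -0.06. The value of -0.06 was that at 4 h. There replicate 1, the library that stood apart, held 47.1 CPM, against 38.0 to 40.0 CPM in replicates 2 to 4.

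CCNE1 and CCNE2, which activate CDK2 at the end of G1, are given in turn. CCNE1 (chr19:29811991-29824312, plus strand) was at 15.2, 14.8, 12.8 and 13.1 CPM in DMSO. After 1 h it was at 11.8, 11.4, 11.1 and 11.0 CPM, and after 4 h at 10.6, 11.4, 11.9 and 12.5 CPM. Both of these dTAG groups lay wholly below DMSO, where 5.37% and 4.43% of all genes had groups that did not overlap. At 0.5, 2 and 24 h the groups overlapped. With the block its difference was -0.29 ± 0.09 on the log2 scale at 1 h and -0.23 ± 0.08 at 4 h, and neither passed (edgeR adjusted p = 0.14 and 0.331). CCNE1 was the thinnest of the 10 genes in counts, with a mean of 134 counts per library and a lowest library of 40 counts, so its relative counting error was the largest of the set.

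CCNE2 (chr8:94879770-94896678, minus strand) held 71.0, 86.5, 73.0 and 71.5 CPM in DMSO. After 0.5 h it was at 75.9, 82.8, 72.7 and 72.9 CPM. After 2 h it was at 64.5, 75.7, 70.8 and 68.8 CPM, and after 4 h at 65.3, 75.2, 62.8 and 60.1 CPM. Each 2 h and 4 h library was below its own DMSO library, although replicate 2 was the highest in every group and kept the groups overlapping. The 24 h libraries held 77.2, 68.3 and 65.7 CPM in replicates 2 to 4. With the block CCNE2 was called lower at 4 h, at a log2 fold change of -0.20 ± 0.04 (edgeR adjusted p = 0.0126), but without the block it was not (-0.20 ± 0.08, adjusted p = 0.501). The blocked call was kept without replicate 1 or 2 (adjusted p = 0.00777 and 0.0973) and lost without replicate 3 or 4 (0.158 and 0.174). INTS8 and NDUFAF6, which overlap CCNE2 on the other strand, had log2 fold changes of -0.04 and -0.02 at 4 h.

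The kinases showed no call in either fit and lay on both sides of DMSO. CDK4, the partner of the D-type cyclins (chr12:57747727-57756013, minus strand), held 23.8, 31.6, 21.0 and 20.5 CPM in DMSO and between 19.9 and 28.7 CPM in the dTAG libraries. It was lower than the DMSO library of the same number in 9 of 19 pairs, and its log2 fold changes with the block ran from -0.03 to 0.08. CDK2, the partner of cyclin E (chr12:55966781-55972789, plus strand), held 18.6, 18.6, 16.7 and 18.8 CPM in DMSO and between 15.4 and 24.6 CPM with dTAG, lower in 8 of 19 pairs. Its log2 fold changes with the block were -0.01 to 0.10. The highest value was replicate 1 at 4 h, the library that stood apart, and without it the 4 h difference was -0.11 ± 0.09 with the block and -0.11 ± 0.11 without, in place of -0.01 and 0.02. CDK2 lies wholly within PMEL on the other strand, and its mean of 192 counts exceeded PMEL's 76.5 counts. Had both genes collected reads of both strands, the outer gene would hold at least as many. Genes enclosed by a gene on the other strand exceeded it in 18.9% of 1523 pairs, against 0.832% of 1802 pairs on the same strand.

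Neither inhibitor was called. CDKN1A (chr6:36676460-36687337, plus strand) was at 31.3, 34.6, 29.2 and 31.3 CPM in DMSO. After 0.5 h it was at 34.3, 40.4, 31.0 and 34.6 CPM, higher in 4 of 4 pairs with overlapping groups. By 2 h it was at 30.7, 32.9, 28.0 and 27.2 CPM, lower in 4 of 4 pairs. The log2 fold changes with the block were 0.15 ± 0.06 at 0.5 h (edgeR adjusted p = 0.341) and -0.09 ± 0.07 at 2 h (adjusted p = 0.672). At 24 h the difference was 0.04 with a 95% interval of -0.11 to 0.18. CDKN1B (chr12:12685498-12722369, plus strand) held 33.6, 39.5, 37.9 and 35.1 CPM in DMSO and between 32.0 and 42.1 CPM with dTAG. Its log2 fold change stayed between -0.09 and 0.04 with the block, and the 24 h interval was -0.10 to 0.17.

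E2F1, the E2F activator (chr20:33675477-33686385, minus strand), was at 26.4, 31.6, 24.1 and 29.2 CPM in DMSO. After 0.5 h it was at 29.0, 29.9, 29.4 and 29.8 CPM, and after 1 h at 27.3, 31.4, 29.2 and 29.6 CPM. Early dTAG libraries therefore lay inside the DMSO range. At 4 h the values were 23.8, 24.9, 25.1 and 24.8 CPM. Replicates 2 to 4 held 24.1, 22.2 and 22.8 CPM at 24 h. The 24 h libraries were all below the lowest DMSO library, though only narrowly (24.08 against 24.10 CPM), a separation found in 9.49% of all genes at this time.

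Against DMSO, E2F1 differed on the log2 scale by 0.10, 0.09, -0.04, -0.16 and -0.27 at 0.5, 1, 2, 4 and 24 h with the block. At 24 h the value was -0.27 ± 0.07 with the block (edgeR adjusted p = 0.0416) and -0.27 ± 0.08 without (adjusted p = 0.157), while 1.22% of all genes were called lower with the block. The blocked call was lost without replicate 2, 3 or 4 (edgeR adjusted p = 0.384, 0.106 and 0.368), each of which holds a 24 h library. It was kept without replicate 1 (adjusted p = 0.027), but that number has no 24 h library, so leaving it out hardly tests the call. The log2 fold changes in these fits were -0.22 to -0.33. At 4 h the difference was not called (-0.16 ± 0.06, edgeR adjusted p = 0.366 with the block).

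MYC (chr8:127735434-127742951, plus strand) held 66.8, 63.4, 63.5 and 56.2 CPM in DMSO. After 0.5 h it held 71.8, 72.6, 68.0 and 66.1 CPM. Every 0.5 h library exceeded its own DMSO library, but replicate 4 at 0.5 h was below replicate 1 of DMSO, so the groups overlapped. At 1 h the values were 69.6, 60.0, 65.1 and 57.6 CPM. With the block MYC was called higher at 0.5 h (log2 fold change 0.16 ± 0.04, edgeR adjusted p = 0.0763), where 1.12% of all genes were called higher, and without the block it was not (0.16 ± 0.07, adjusted p = 0.593). This call was lost without any single replicate number, at adjusted p-values of 0.106, 0.237, 0.222 and 0.451 without replicates 1 to 4. From 1 h on, its log2 fold change was between -0.05 and 0.03. CASC11, a lncRNA that overlaps 47.3% of MYC on the other strand, was at -0.08 ± 0.11 at 0.5 h.

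**Figure D3:**
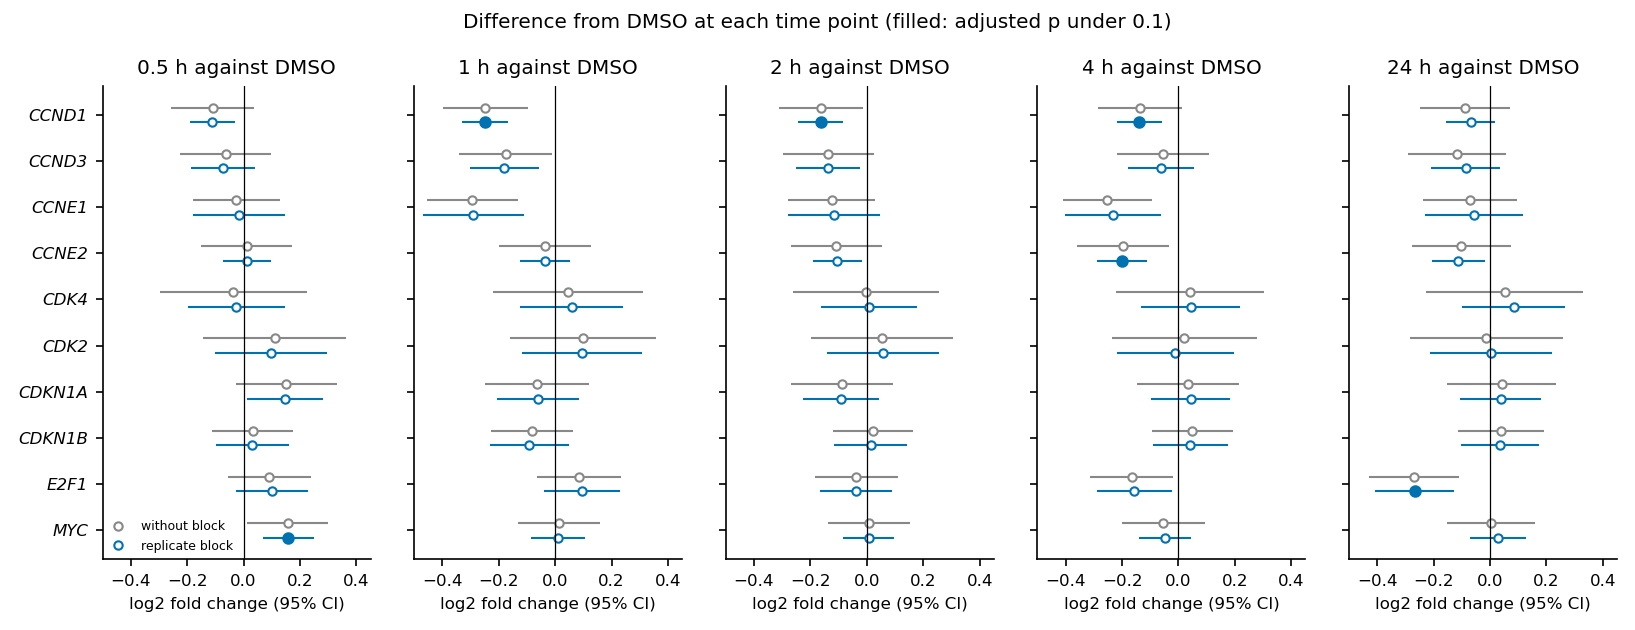
Log2 fold change against DMSO with its 95% interval for each gene (rows) and time point (panels), without the replicate block (grey) and with it (blue). Filled points passed an adjusted p of 0.1: 6 of 50 with the block (MYC at 0.5 h, CCND1 at 1, 2 and 4 h, CCNE2 at 4 h, E2F1 at 24 h) and 0 of 50 without.

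Tested over the first 4 h as a whole, 0 of the 10 genes passed without the block in edgeR and 0 by DESeq2. In this edgeR test 1.33% of 25255 genes passed. An unadjusted p under 0.05 was found for 4 of the 10 genes and for 2147 of the 25255. With the block 3 passed, CCND1 (adjusted p = 0.0148), CCNE2 (0.0346) and MYC (0.0393), while 4.6% of all genes did. Without the shallow 4 h library these 3 passed again with CDKN1A (adjusted p = 0.0846). Leaving 1 replicate number out gave 4, 0, 1 and 0 calls without replicates 1 to 4. No gene was called in a step from one time point to the next (0 of 40 in both fits and by DESeq2). In edgeR, 2 of 40 steps had an unadjusted p under 0.05 without the block and 6 with it. Of all 26057 genes, 1348, 1367, 868 and 1950 had such a p without the block in steps ending at 1, 2, 4 and 24 h. With the block these counts were 2447, 2709, 1890 and 2831. Steps ending at 1, 2, 4 and 24 h were called for 0.023%, 0.0269%, 0.00768% and 0.453% of all genes without the block, and for 0.157%, 0.691%, 0.0154% and 1.77% with it. The clearest steps, from 0.5 to 1 h with the block, were differences in CCND1 of -0.14 ± 0.04 (edgeR adjusted p = 0.225), MYC of -0.15 ± 0.04 (0.26) and CCNE1 of -0.28 ± 0.08 (0.265), none of which passed. The order in time of these genes is therefore a description, and a call at one time and not at the next does not show a difference between those times.

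Among the genes that carry out the cell cycle, those of mitosis were called mostly at 24 h. Of 62 mitosis genes, 20 fell at 24 h without the block and 41 with it, against 0.299% and 1.22% of all genes, and none of the 62 rose. The median log2 fold change was -0.24 for the mitosis list and 0.00 over all genes. Among the 20, TOP2A, which untangles DNA, was at 192 ± 10.7 CPM (SD, n = 4) in DMSO. After 4 h it stood at 199.7 ± 21.4 CPM (n = 4), with libraries from 187 to 232 CPM against 181 to 206 CPM in DMSO. After 24 h it was at 149 ± 5.21 CPM (n = 3), at a log2 fold change of -0.36 ± 0.07 (edgeR adjusted p = 0.00999). The spindle checkpoint kinase gene BUB1 fell by 0.28 on the log2 scale, the spindle assembly gene TPX2 by 0.26, the chromosome motor gene KIF4A by 0.25, the centromere gene CENPI by 0.27 and the cytokinesis gene ANLN by 0.24. The step from 4 to 24 h alone held 24 falls among the 62 genes without the block and 47 with it, against 0.28% and 1.05% of all genes. At 0.5, 1, 2 or 4 h no mitosis gene was called without the block (edgeR), and the median stayed between -0.02 and 0.05. With the block 2, 2, 0 and 0 were called lower and 0, 0, 1 and 1 higher at 0.5, 1, 2 and 4 h. Tested over the first 4 h as a whole, 1 of 62 passed without the block, at a mean difference below 0, and with the block 1 above and 3 below 0 passed. Without replicate 1 at 4 h that 1 call and the blocked call at 4 h were lost.

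The count for these lists at 24 h depended on the settings. The 21 mitosis and DNA replication genes called lower without the block became 18, 3, 0 and 4 without replicates 1 to 4, while the median of the mitosis list stayed between -0.21 and -0.26 under all alternatives. With the block the same counts were 52, 26, 14 and 34. Replicate 1 has no 24 h library, so leaving it out removed no 24 h value.

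DNA replication genes, many of them E2F targets, shifted less. Their median log2 fold change was 0.07, 0.06, 0.02, -0.07 and -0.11 at 0.5, 1, 2, 4 and 24 h. With the block 1, 4, 1 and 0 of 56 were called higher and 0, 0, 0 and 4 lower at 0.5, 1, 2 and 4 h, and without it none was at these times. Over all genes the blocked fit called 1.12%, 1.49%, 1.3% and 1.55% higher and 1.36%, 1.75%, 1.13% and 0.948% lower. In the joint test of the first 4 h, 3 genes with a mean difference above 0 and 1 below it passed without the block, and 10 and 6 did in the blocked fit. All genes passed this test at 1.33% and 4.6%. Without replicate 1 at 4 h the unblocked counts were 3 and 0. At 24 h 1 of 56 was called lower without the block and 10 with it, although 55 of 56 were below 0. The 1 called in both fits was POLE2, a subunit of DNA polymerase epsilon, at 50.9 ± 2.17 CPM (SD, n = 4) in DMSO and 43.5 ± 0.636 CPM (n = 3) at 24 h (log2 fold change -0.23 ± 0.05, edgeR adjusted p = 0.0481).

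**Figure D4:**
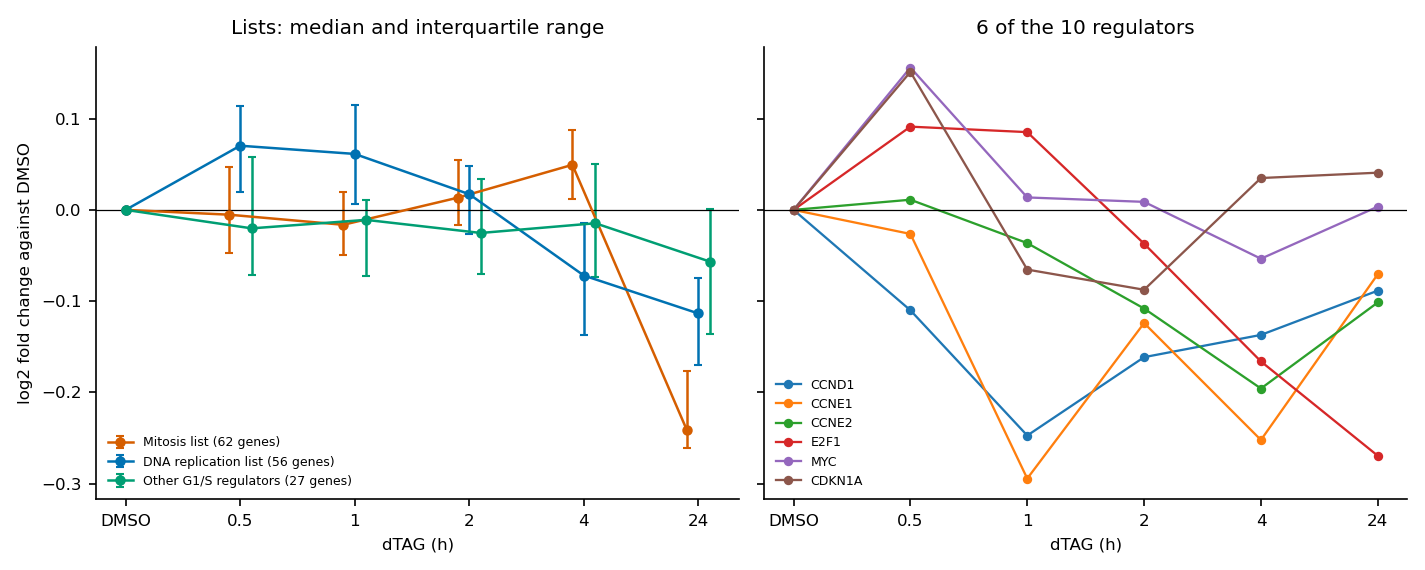
Log2 fold change against DMSO by time in h (categories, not to scale; fits without the block): medians of 3 lists with bars for the interquartile range over genes (left) and 6 of the 10 genes (right). CCND1 and CCNE1 are lowest at 1 h, CCNE2 at 4 h and E2F1 at 24 h, when the mitosis list drops to a median of -0.24.

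By time of lowest value, 62 of 62 mitosis genes and 37 of 56 DNA replication genes were lowest at 24 h without the block, against 27.3% of all genes. Of the 10 regulators, 2 (E2F1 and CDK2) were lowest at 24 h and 4 (CCND1, CCND3, CCNE1 and CDKN1B) at 1 h, against 22.4% of all genes at 1 h. With the block CDK2 moved to 4 h and the mitosis list to 61 of 62. The median over the 10 regulators was 0.02, -0.05, -0.06, -0.05 (-0.12 without replicate 1 at 4 h) and -0.04 from 0.5 to 24 h, and it was 0.00 to 0.01 over all genes.

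Of 27 other G1/S regulators, 2 fell at 24 h without the block and 4 with it, against 0.299% and 1.22% of all genes, and none rose. CCNA2, the cyclin of S phase and G2, was at 29.5 ± 0.988 CPM (SD, n = 4) in DMSO. It stood at 31.2 ± 2.13 CPM (n = 4) after 4 h and 24.1 ± 0.903 CPM (n = 3) after 24 h, at a log2 fold change of -0.29 ± 0.07 (edgeR adjusted p = 0.0407). It also fell from 4 to 24 h, by 0.37 ± 0.07 on the log2 scale (adjusted p = 0.0146). RBL1 (p107), a pocket protein that is itself an E2F target, went from 153 ± 5.33 CPM in DMSO to 129.96 ± 2.99 CPM at 24 h (-0.23 ± 0.05, edgeR adjusted p = 0.0366). With the block the phosphatase gene CDC25A (-0.22 ± 0.04, adjusted p = 0.00945) and E2F7 (-0.15 ± 0.04, adjusted p = 0.0903) joined them. Both were named after their values were seen.

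Early on, no gene of this list was called without the block. With it, CDK6, the other partner of the D-type cyclins, was called lower at 0.5 h (-0.24 ± 0.06, edgeR adjusted p = 0.0382, as were 1.36% of all genes) and 1 h (-0.23 ± 0.06, adjusted p = 0.0578), and RBL2 at 0.5 h (-0.18 ± 0.05, adjusted p = 0.08). RBL1 was called lower at 4 h (-0.15 ± 0.04, edgeR adjusted p = 0.0926), a call that was lost without the shallow library. In the blocked test of the first 4 h, CDK6 passed at a mean difference below 0 and CDC25A above it. These too were named after their values were seen. The 3 most deeply counted genes with no call, MNAT1, TFDP2 and CCNH, had log2 fold changes of -0.02, 0.05 and -0.09 at 24 h.

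**Figure D5:**
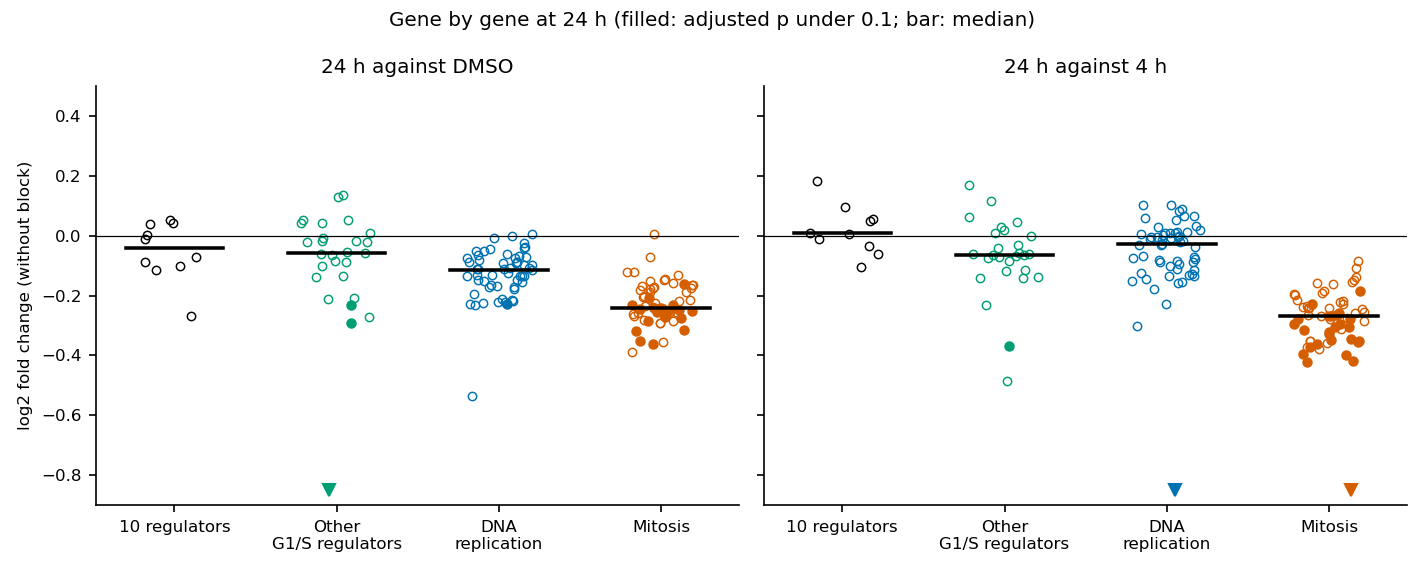
Log2 fold change of each gene at 24 h against DMSO (left) and against 4 h (right) without the block, for the 10 regulators and 3 lists. Filled points passed an adjusted p of 0.1, bars are medians, and triangles at the lower edge are 3 points that lie below the axis. These are 1 other G1/S regulator on the left, and 1 DNA replication gene and 1 mitosis gene on the right. The mitosis list has the lowest median in both panels, and none of the 10 regulators is filled.

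Genes around MYC and p53 gave few calls. Of 20 MYC target genes, 1 was called at 0.5 h without the block, NPM1, a nucleolar chaperone gene that rose from 187 ± 5.03 CPM (SD, n = 4) to 212 ± 7.10 CPM (n = 4; log2 fold change 0.18 ± 0.04, edgeR adjusted p = 0.0521). The list's median without the block was 0.12 at 0.5 h, against 0.01 for all genes, and -0.09 at 24 h, with 15 of 20 below 0. With the block these medians were 0.08 and -0.07, with 12 of 20 below 0 at 24 h. All genes were called at 0.476% at 0.5 h. With the block NPM1 was called at 0.5 and 1 h, and NME1, a nucleoside diphosphate kinase gene, was lower at 24 h (-0.24 ± 0.06, edgeR adjusted p = 0.0573). None of the 9 MYC partner and antagonist genes that passed the count filter, of 10 listed, was called without the block (edgeR), and MXD4 was called lower at 1 h with it.

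Among 21 p53 target genes, TP53INP1, a stress-induced gene, fell at 0.5 h (-0.29 ± 0.06, edgeR adjusted p = 0.0692), and TP53I3, an oxidoreductase gene, rose at 2 h (0.19 ± 0.04, adjusted p = 0.0554), when 0.733% of all genes were called. In the blocked fit TP53I3 was called higher at all 5 times, and TP53INP1 and ZMAT3 lower at 0.5 h. NME1, MXD4 and ZMAT3 were named after their values were seen. At 24 h no gene of the list was called without the block, the median was 0.06, and CDKN1A stood at 0.04. All 10 luminal markers were below 0 at each of the 5 times without the block, with list medians of -0.12, -0.17, -0.15, -0.08 (-0.16 without replicate 1 at 4 h) and -0.15 at 0.5, 1, 2, 4 and 24 h. Called lower without the block were GATA3 and SPDEF, at 0.5 to 4 h (-0.22 and -0.35 at 0.5 h), and none at 24 h. All genes were called at 0.476%, 1.25%, 0.733% and 0.833% at 0.5, 1, 2 and 4 h. With the block 3, 6, 4, 3 and 2 of 10 were called lower at 0.5, 1, 2, 4 and 24 h. The shares of all genes called lower were 1.36%, 1.75%, 1.13%, 0.948% and 1.22%. KRT19 was among them at 0.5, 1, 2 and 24 h (-0.21 ± 0.03 at 24 h). PGR was among them at 1, 2, 4 and 24 h (-0.21 ± 0.04 at 24 h), and KRT8 and XBP1 at 1 h. KRT19, PGR, KRT8 and XBP1 were named after their values were seen. With the block the luminal median was -0.12, -0.18 and -0.15 at 0.5, 1 and 2 h. At 24 h it was -0.08 in that fit, with 9 of 10 markers below 0. Of the 3 basal markers that passed the count filter, TP63 alone was called, higher at 1, 2, 4 and 24 h without the block (0.49 ± 0.09 at 1 h, edgeR adjusted p = 0.00504, and 0.49 ± 0.09 at 24 h, adjusted p = 0.00721). The basal list's median was 0.05 at 1 h, with 1 of the 3 below 0, and 0.24 at 24 h, the time of the mitosis calls. Their part in the values above was not tested.

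Across the 23 libraries, after the replicate number's effect was removed, the 45 pairs among the 10 genes had Pearson correlations of log2 CPM from -0.31 to 0.59 (median 0.15). The closest pairs were CCND1 with CCNE1 (0.592), CCND1 with CCND3 (0.554) and CCNE2 with E2F1 (0.500). Libraries share depth and treatment, so these values are descriptions. Among the 14114 other genes with a mean count of at least 100 that were set beside it, those most like CCND1 were EPHB3 (r = 0.887), GCOM1 (0.876) and DEGS2 (0.856). Those most like CCNE2 were ANO1 (0.818), CUX2 (0.805) and GRIK4 (0.798). E2F1 lay closest to EXOSC6 (0.831), CHAF1B (0.828), a subunit of the chromatin assembly factor that works at replication forks, and ENSG00000260851 (0.827), and MYC to ZNF749 (0.800), TOMM5 (0.780) and PRRT3 (0.768).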

How the data were processed

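The authors deposited a table of PRO-seq raw counts per gene (Ensembl identifiers) for the 23 libraries. The submitters' processing notes name cutadapt 1.8.1, Bowtie2 2.4.4, SAMtools 1.9 and hg38. How strand was used in counting, and which gene models, is not given in the sources used here. Symbols and coordinates were taken from GENCODE release 44, which matched 60463 of 60605 identifiers. Reads at promoter-proximal pauses and in gene bodies are summed in these counts, and steady-state RNA is not measured.

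Counts were tested with edgeR 4.0.16 (R 4.3.3; TMM scaling, glmQLFit and glmQLFTest) after its low-count filter (minimum count 10, minimum total 15), which kept 26057 genes over 23 libraries and 25255 over the 20 libraries of the first 4 h. P-values were adjusted by Benjamini-Hochberg over all kept genes and called under 0.1. The tool keeps p-values at or above those of a Poisson fit, so a 95% interval can exclude 0 where p is larger than its interval implies. CPM use TMM-scaled library sizes, except the levels and sums of cell type markers, which use total counts alone. Fold changes are on the log2 scale with approximate standard errors. The contrasts were each time point against DMSO, successive time points, and any change over 0.5 to 4 h. The scripts were tested on simulated data.

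The replicate numbers pair libraries by harvest, per the labels. Deviations from the group means correlated at a mean r of 0.287 over 55 pairs with the same number and -0.0825 over 165 pairs with different numbers, and the common dispersion was 0.0249 without and 0.00489 with the replicate term. The same-number mean was uneven, at 0.578 and 0.434 for numbers 1 and 3 but only 0.0896 and 0.141 for numbers 2 and 4. The replicates were harvested from 1 clone in 1 day, so p-values measure the spread between those harvests only. No pair of replicate libraries agreed within sampling noise.

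Alternatives were the replicate block, DESeq2 1.42.0 and its size factors, total counts, no low-count filter, each replicate number left out (with and without the block), only the groups compared and, added after seeing the data, leaving out replicate 1 at 4 h. All 10 genes are named, along with list genes called without the block (up to 6 a list), the 3 uncalled G1/S regulators with the largest mean count, and for each of the 10 called in either fit the 3 genes most alike. The genes and lists were chosen with earlier results of these data known.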

Additional observations from a re-analysis of the deposited data

Results flagged for a closer look

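In 5 of the 50 groups of 4 libraries (10 genes in DMSO and 4 dTAG time points), 1 library stood apart from the other 3 by more than Dixon's 95% limit of 0.829; chance flags about 1 in 20 groups. CCND1 in replicate 4 at 1 h was at 118 CPM, against 144 to 149 CPM in the others, and CCND1 was still called lower at 1 h with the replicate block without this replicate number (log2 fold change -0.20, edgeR adjusted p = 0.0404). CCNE2 in replicate 2 of DMSO was at 86.5 CPM, against 71.0 to 73.0 CPM. CDK2 in replicate 3 of DMSO was at 16.7 CPM, against 18.6 to 18.8 CPM. CDKN1B in replicate 3 at 2 h was at 33.3 CPM, against 38.2 to 38.6 CPM. MYC in replicate 4 at 4 h was at 56.4 CPM, against 61.1 to 61.7 CPM.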

How the results depend on the processing

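Calls among the 10 genes against DMSO were 0 without the block, 6 with the replicate block and 1 with DESeq2, and ran from 1 to 5 with the block and 1 replicate number left out. Over the first 4 h the count was 0 without the block, 3 with the replicate block and 0 to 4 with the block and 1 replicate left out. Steps between time points gave 0 calls under every alternative run. No called value changed sign, and the replicate block changed no other call among the 10 genes. The 21 mitosis and DNA replication genes called lower at 24 h became 51 with the replicate block, 2 with total counts only, 6 with no low-count filter and 2 with only the groups compared, and ran from 0 to 18 with 1 replicate left out and from 14 to 52 (34 without replicate 4) with the block as well. Leaving out the shallow replicate 1 library at 4 h, an alternative chosen after seeing the data, gave 0, 0 and 24 calls (10 genes against DMSO, the same over the first 4 h, and the lists at 24 h), and 6, 4 and 56 with the replicate block. RLE size factors gave 22 and DESeq2 31. The causes were not tested. With total counts only, all genes at 24 h split into 96 higher and 14 lower, against 147 and 78. For single genes, 153 values lost and 85 gained a call under an alternative, and 4102 kept theirs. All libraries come from 1 clone, and 24 h has 3, so the 95% intervals given for each gene bound what these data can show.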
